A study of Homo sapiens with 70 samples.

Results

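Immediate early transcription factors are the members followed here. They are 10 genes of the 78932 in the deposited table, taken by gene name: the FOS family genes FOS, FOSB and FOSL1, the JUN family genes JUN and JUNB, the EGR family genes EGR1, EGR2 and EGR3, the orphan nuclear receptor gene NR4A1, and ATF3. The rule uses no measured value, but the members were chosen with earlier results of these data known. Each name matched 1 row, and all 10 genes passed the filter on low counts in every fit.

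Immediate early genes are transcribed within minutes of a stimulus because the factors that switch them on, such as SRF with its ETS partners at CArG boxes and CREB at cyclic AMP response elements, are already present. FOS and JUN family proteins pair through leucine zippers to form AP-1. EGR proteins bind GC-rich sites through zinc fingers, NR4A1 is a nuclear receptor regulated mainly by its level, and ATF3 is a stress-induced factor of the ATF/CREB family. These genes are commonly read as output of the RAF, MEK and ERK kinases, and FOSL1 is known as the FOS family member held up by sustained ERK signalling.

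The cells were sotorasib-resistant MIA PaCa-2, an established line of pancreatic ductal adenocarcinoma, and every group carried doxycycline-inducible dCas9-KRAB, a dead Cas9 fused to a repressor domain. Cells held 1 of 3 guides, sgZBTB11-1 or sgZBTB11-2 against the zinc finger gene ZBTB11 or the control sgNS, and received DMSO or doxycycline (DOX). Poly(A) RNA was sequenced at 5 hr and at days 1, 3 and 5, which gave 70 libraries in 24 groups. A group holds 3 libraries, or 2 in the case of DMSO sgNS on day 1 and DMSO sgZBTB11-1 on day 5. Nothing in the labels ties the libraries of a group to separate cultures, and no clone or batch is named. P-values therefore measure only how far the libraries of a group lie apart, a spread that may be technical, and time cannot be told apart from anything else that the libraries of 1 time share.

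The gene identifiers and positions on GRCh38.p14 are FOS (ENSG00000170345.11, chr14:75278828-75282230), FOSB (ENSG00000125740.15, chr19:45467996-45475179), FOSL1 (ENSG00000175592.9, chr11:65892049-65900545), JUN (ENSG00000177606.9, chr1:58780791-58784047), JUNB (ENSG00000171223.6, chr19:12791486-12793315), EGR1 (ENSG00000120738.8, chr5:138465479-138469303), EGR2 (ENSG00000122877.18, chr10:62811996-62819167), EGR3 (ENSG00000179388.9, chr8:22687659-22693480), NR4A1 (ENSG00000123358.20, chr12:52022832-52059503) and ATF3 (ENSG00000162772.18, chr1:212565407-212620777).

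Libraries held 12068833 to 20627648 counts, and the 10 genes together took 0.0962% to 0.243% of them. Levels are given in CPM, which scales counts to library size (by TMM over all 70 libraries), and in TPM, which is per length, where genes are set beside each other. KRT8, KRT18 and VIM were above 0 in all 70 libraries, and CDKN2A, which is deleted in MIA PaCa-2, was at 0 in 70 of 70. Of markers of other cell types, COL1A2 (median 146 TPM), CDH5 (5.8) and COL3A1 (5.73) were present, while INS and GCG were at 0 in 70 of 70 libraries, PRSS1 and CELA3A in 69, CD3E in 68 and PTPRC in 65. Low levels were found for CD14 (median 0.815 TPM), COL1A1 (0.35), CD79A (0.265) and CPA1 (0.145). These were at 0 in 0, 0, 3 and 24 of 70 libraries. ZBTB11 itself ran at 44.4 to 60.1 CPM in the day 3 and day 5 DMSO libraries, and with DOX at 46.9 to 55.5 in sgNS, 31.6 to 38.4 in sgZBTB11-1 and 26.3 to 28.7 in sgZBTB11-2. The lines differed in ZBTB11 without DOX too. With DMSO sgZBTB11-1 and sgZBTB11-2 stood 0.13 (adjusted p = 0.023 in edgeR) and 0.11 (0.063) log2 from sgNS at 5 hr. Day 1 gave -0.091 (0.29) and -0.19 (0.033). Day 3 gave -0.25 (7.6e-04) and -0.26 (0.0013), and day 5 gave -0.23 (0.0023) and -0.11 (0.15). Net of sgNS the log2 change of ZBTB11 with DOX was -0.26 at 5 hr, -0.32 at day 1 (adjusted p = 0.055), -0.56 at day 3 and -0.50 at day 5. The 5 hr value includes a rise of ZBTB11 with DOX of 0.17 in sgNS. In the ZBTB11 lines the 5 hr change was -0.0035 for sgZBTB11-1 (adjusted p = 0.96 in edgeR) and -0.17 for sgZBTB11-2.

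Start-site regions are shown for 5 of the genes, because they hold the CArG boxes found in the regions searched and the TATA boxes next to a start site. The 5 include FOS with JUNB and FOSB with EGR2, the pairs whose levels ran most alike. The RefSeq promoter table of GRCh38.p14 held 12 start sites for 8 of the 10 genes. FOSL1 and EGR3 had no entry. Each line gives the 250 bases before a start site, 5′ to 3′ on the gene's strand, in lower case with motif matches in capitals. FOS lies at chr14:75278578-75278827 (+), FOSB at chr19:45467746-45467995 (+), JUNB at chr19:12791236-12791485 (+), EGR1 at chr5:138465229-138465478 (+) and the start site of EGR2 with a match, the third of 3 in the table, at chr10:62816367-62816616 (-).
FOS: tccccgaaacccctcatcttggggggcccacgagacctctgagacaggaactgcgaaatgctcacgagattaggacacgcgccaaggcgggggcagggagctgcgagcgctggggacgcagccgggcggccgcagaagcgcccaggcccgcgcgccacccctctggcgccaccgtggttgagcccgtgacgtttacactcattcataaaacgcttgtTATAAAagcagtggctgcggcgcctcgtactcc
FOSB: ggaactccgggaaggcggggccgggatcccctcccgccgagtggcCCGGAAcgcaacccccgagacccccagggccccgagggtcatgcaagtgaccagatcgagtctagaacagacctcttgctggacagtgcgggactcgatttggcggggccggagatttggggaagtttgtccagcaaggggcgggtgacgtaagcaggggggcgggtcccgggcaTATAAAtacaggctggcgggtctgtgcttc
JUNB: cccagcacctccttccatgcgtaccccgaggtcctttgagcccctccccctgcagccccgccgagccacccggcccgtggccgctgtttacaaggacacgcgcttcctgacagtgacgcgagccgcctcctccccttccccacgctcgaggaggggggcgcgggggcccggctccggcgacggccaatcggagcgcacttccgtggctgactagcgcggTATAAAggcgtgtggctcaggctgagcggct
EGR1: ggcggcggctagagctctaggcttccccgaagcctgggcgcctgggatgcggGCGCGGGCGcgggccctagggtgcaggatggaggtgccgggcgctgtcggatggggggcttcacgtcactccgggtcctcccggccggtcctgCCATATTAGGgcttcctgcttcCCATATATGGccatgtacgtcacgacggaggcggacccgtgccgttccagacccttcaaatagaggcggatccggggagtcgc
EGR2: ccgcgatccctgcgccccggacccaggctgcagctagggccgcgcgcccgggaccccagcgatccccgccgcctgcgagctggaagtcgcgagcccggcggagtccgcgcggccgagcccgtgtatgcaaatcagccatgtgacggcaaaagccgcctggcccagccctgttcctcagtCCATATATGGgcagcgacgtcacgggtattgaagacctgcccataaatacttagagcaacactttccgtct

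The capitals mark matches to 7 motifs searched on both strands, of which 4 occur in these sequences. The CArG box, which SRF binds, had 2 matches in EGR1, at -105 to -96 and -83 to -74 from the start, and 1 in EGR2, at -71 to -62. It was found in 1.16% of the 35116 promoters of the table. TATAAA stood at -33 to -28 in FOS, -30 to -25 in FOSB and -31 to -26 in JUNB, and in 10.7% of all promoters. The EGR motif GCGNGGGCG had 1 match, in EGR1 itself at -198 to -190 (8.41% of all promoters), and the ETS core CCGGAA was at -205 to -200 in FOSB (14.5%). The AP-1 motif TGANTCA and the cyclic AMP response element TGACGTCA, found in 6.57% and 1.65% of promoters, had no match among the members' 12 regions. Among the regions not shown, NR4A1 held CCGGAA at -17 to -12 and ATF3 held the NR4A motif AAAGGTCA at -202 to -195 (1.05% of all promoters) and TATAAA at -230 to -225, and JUN held no match. No match overlapped another. Only exact matches within 250 bases were searched for, so a site farther away or with a changed base would be missed. A match describes letters and is no evidence of binding.

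With DMSO alone the 10 genes did not move as a block over culture time. Between 5 hr and day 1 FOS, FOSB, JUNB, EGR1, EGR2, EGR3, NR4A1 and ATF3 rose, FOSL1 fell, and JUN was at -0.04 on the log2 scale. By day 3 the FOS and JUNB levels were higher still while the other 8 genes had fallen, ATF3 and FOSL1 the most. At day 5 FOS and JUNB were at their highest, FOSB, EGR2, NR4A1 and ATF3 had risen again, JUN and EGR1 had risen (EGR1 by 0.05), and FOSL1 was at its lowest. These changes average the 3 guides in 1 edgeR quasi-likelihood fit of the 34 DMSO libraries with Benjamini-Hochberg adjustment, and a call is an adjusted p under 0.05. Transcripts of mitochondrial DNA went from a mean of 13.1% of counts at 5 hr and 10.96% at day 1 to 19.8% at day 3 and 30.7% at day 5. The summed level of 6 fibroblast markers ran from 97.0 to 137 TPM at 5 hr, 120 to 157 at day 1, 168 to 212 at day 3 and 154 to 187 at day 5, nearly all of it COL1A2, while DCN, LUM and PDGFRB were at 0 in 51, 46 and 46 of 70 libraries. The part of either in the changes with time was not tested.

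**Figure D1:**
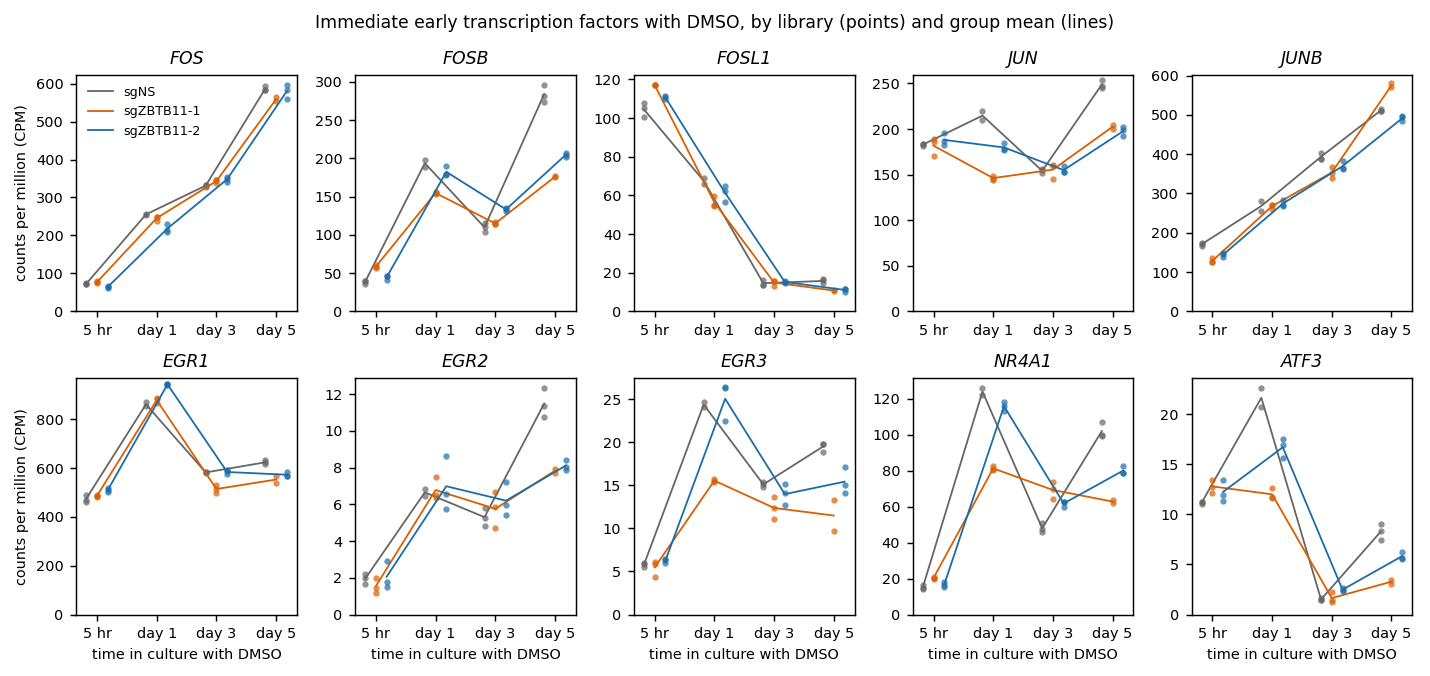
CPM of each gene with DMSO at 5 hr and days 1, 3 and 5, 1 point per library and 1 line per guide through the group means. FOS rose from a mean of 71.4 to 578 CPM and JUNB from 148 to 520, FOSL1 fell from 111 to 12.8, and NR4A1 and EGR1 were highest at day 1.

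Most genes of the transcriptome were called between these times, and the members' counts stand against that background. From 5 hr to day 1 8 of 10 members rose and 1 fell, where 34.1% of 17598 genes rose and 33.1% fell. The members' median log2 change was 1.32, and that of all genes 0.01. From day 1 to day 3 2 rose and 8 fell, against 41.4% and 38.4% of all genes, with medians of -0.58 and 0.05. From day 3 to day 5 8 rose and 1 fell, against 30.8% and 34.6%, with medians of 0.47 and -0.02.

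FOS encodes the partner that gives AP-1 most of its early inducibility. At 5 hr its 9 DMSO libraries ran from 62.8 to 78.8 CPM with a median of 71.8, and at day 1 the 8 libraries ran from 210 to 258 with a median of 244. At day 3 they ran from 329 to 353 (median 342) and at day 5 from 553 to 597 (median 583). No range overlapped the next, and the mean was 8.08-fold higher at day 5 than at 5 hr. The log2 change was 1.76 (SE 0.021, adjusted p = 1.9e-54) from 5 hr to day 1, 0.53 (SE 0.018, adjusted p = 9.7e-33) to day 3 and 0.74 (SE 0.017, adjusted p = 1e-39) to day 5.

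JUNB, a JUN family member that can restrain JUN, followed the same course. Its DMSO libraries ran from 125 to 173 CPM at 5 hr (median 147), 256 to 284 at day 1 (median 271), 340 to 404 at day 3 (median 367) and 484 to 580 at day 5 (median 510). Each later range lay above the earlier one, and the steps were 0.89, 0.48 and 0.48 on the log2 scale. JUN itself, the AP-1 subunit that can also pair with itself, had no steady course. It had means of 184, 176, 155 and 218 CPM, fell by 0.18 from day 1 to day 3 and rose by 0.46 to day 5. Its day 1 libraries ran from 144 to 220 CPM, and its ranges overlapped between 5 hr and day 1 and between day 1 and day 3. The change from 5 hr to day 1, -0.04 in edgeR, was 0.19 (adjusted p = 1.4e-07) in limma on log2(TPM + 1), where the median of all genes was 0.13.

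FOSL1 encodes FRA-1, a FOS family protein that lacks the transactivation domain of FOS. It ran from 100.5 to 117 CPM at 5 hr (median 111), 54.5 to 69.2 at day 1 (median 60.96), 13.1 to 16.3 at day 3 (median 15.2) and 10.2 to 16.6 at day 5 (median 11.6). The first 3 ranges were apart and the last 2 overlapped, and the 5 hr mean was 8.68-fold above that of day 5. Its log2 changes were -0.84, -2.03 and -0.28. The last of these differed between lines, with 0.11 in sgNS and -0.48 in both ZBTB11 guide lines, and this difference was not tested.

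FOSB gave a rise, a fall and a second rise. Its DMSO libraries ran from 35.7 to 60.8 CPM at 5 hr (median 46.1), 154 to 198 at day 1 (median 178), 103 to 135 at day 3 (median 116) and 175 to 297 at day 5 (median 206). No neighbouring ranges overlapped, and the log2 changes were 1.93, -0.55 and 0.85.

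Among the EGR genes EGR1 was by far the most abundant. Its libraries ran from 463 to 519 CPM at 5 hr (median 491), 854 to 946 at day 1 (median 885), 497 to 591 at day 3 (median 582) and 541 to 633 at day 5 (median 576). Day 1 stood above all other times, and days 3 and 5 overlapped. The log2 changes were 0.87, -0.66 and 0.05, and the last (SE 0.017, adjusted p = 0.016) was lost without sgZBTB11-1 DMSO day 5 replicate 1 (adjusted p = 0.088). This last change turned to -0.19 on the log2(TPM + 1) scale, where the median of all genes was -0.18.

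EGR2 and EGR3 were scarce, and their counting error is larger. EGR2 ran from 1.17 to 2.91 CPM at 5 hr (median 1.76), 5.77 to 8.64 at day 1 (median 6.53), 4.72 to 7.24 at day 3 (median 5.81) and 7.72 to 12.3 at day 5 (median 8.23). It changed by 1.90 (SE 0.11), -0.23 (SE 0.086) and 0.64 (SE 0.084), and days 1 and 3 overlapped. EGR3 ran from 4.41 to 6.47 CPM at 5 hr (median 6.01), 15.4 to 26.4 at day 1 (median 23.2), 11.1 to 15.4 at day 3 (median 14.1) and 9.65 to 19.8 at day 5 (median 16.1). It rose by 1.86 and fell by 0.60, and its change from day 3 to day 5 was 0.12 (adjusted p = 0.052) with overlapping ranges. In TPM the fall of EGR3 at day 3 was absent, with means of 5.24 at day 1 and 5.30 at day 3 and a log2 change of 0.02.

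NR4A1 had the largest first rise of the 10 genes. It ran from 14.2 to 20.9 CPM at 5 hr (median 16.5), 80.3 to 126 at day 1 (median 115), 45.8 to 73.7 at day 3 (median 62.7) and 62.1 to 107 at day 5 (median 80.9). Its log2 changes were 2.62 (SE 0.032), -0.82 (SE 0.026) and 0.43 (SE 0.028), and the ranges of days 3 and 5 overlapped. ATF3 had the deepest fall. It ran from 11.1 to 13.5 CPM at 5 hr (median 11.9), 11.6 to 22.6 at day 1 (median 16.3), 1.27 to 2.67 at day 3 (median 1.61) and 3.08 to 9.03 at day 5 (median 5.97). Its changes were 0.44, -3.13 and 1.54, and of neighbouring times only 5 hr and day 1 overlapped.

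The lines did not follow 1 course with DMSO. From 5 hr to day 1 JUN rose in sgNS (0.24), fell in sgZBTB11-1 (-0.31) and was at -0.05 in sgZBTB11-2. ATF3 rose by 0.96 in sgNS and 0.46 in sgZBTB11-2 and was at -0.09 in sgZBTB11-1. From day 3 to day 5 NR4A1 rose by 1.08 in sgNS and 0.35 in sgZBTB11-2 and fell by 0.15 in sgZBTB11-1. Over that step FOSB rose by 1.36 in sgNS against 0.60 in each ZBTB11 line, and ATF3 by 2.42 against 0.99 and 1.21. These differences in course were not tested.

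Per length the order of the 10 genes turned over with time. In TPM with DMSO at 5 hr EGR1 led at 139 ± 11 (SD, n = 9), followed by JUNB at 75.1 ± 7.2, FOSL1 at 68.7 ± 5.9, JUN at 50.1 ± 3.3, FOS at 39.9 ± 4.8 and FOSB at 12.8 ± 2.8. The levels of ATF3 (6.31 ± 0.97), NR4A1 (5.28 ± 0.84), EGR3 (1.36 ± 0.27) and EGR2 (0.646 ± 0.14) were lowest. By day 5 FOS stood first at 317 ± 35 (n = 8), followed by JUNB at 274 ± 19 and EGR1 at 173 ± 23, while FOSL1 was at 8.11 ± 2.3. FOSB (63.6 ± 18) and JUN (62.9 ± 12) at day 5 differed by less than either SD, JUNB and FOSL1 at 5 hr by less than the larger SD, and ATF3 and NR4A1 at 5 hr by slightly more than either.

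Over the 24 group means the genes separated by pattern. Pearson's r of log2 CPM was 0.98 for FOS with JUNB, 0.97 for FOSB with EGR2 and 0.95 for NR4A1 with both FOSB and EGR3. FOSL1 ran against JUNB (-0.94) and FOS (-0.91) and with ATF3 (0.76). JUN had no r above 0.40 with any other member. These values describe 24 points that share time and guide, and 33 of the 45 pairs were above 0.

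**Figure D2:**
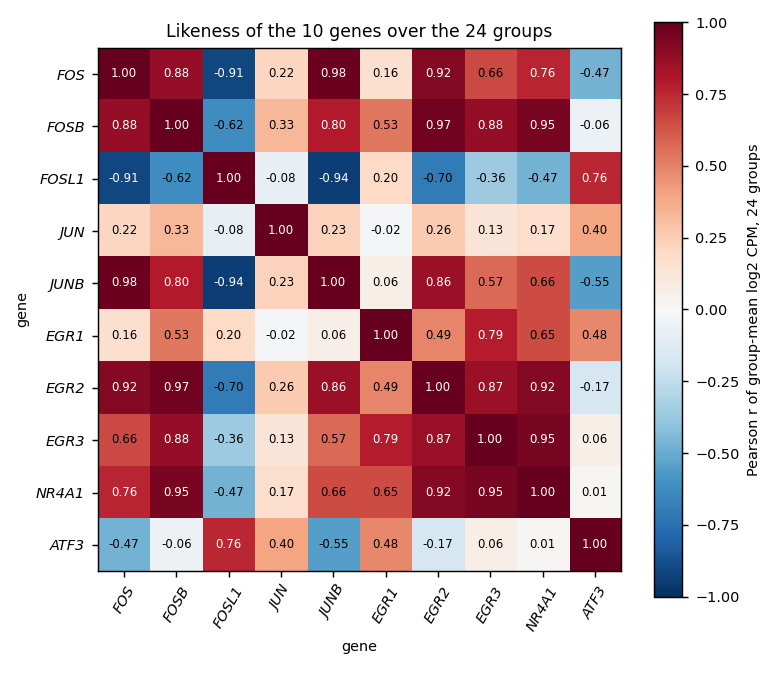
Pearson's r of group-mean log2 CPM over the 24 groups for each pair of the 10 genes, with red for positive and blue for negative. FOS and JUNB reach 0.98, FOSL1 is at -0.94 with JUNB, and JUN is at or below 0.40 with every other gene.

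Of 11192 other genes with a mean of at least 5 CPM, those most like each member by the same r were these. For JUNB they were NAB2, a corepressor of EGR proteins (0.99), ZFP36, an immediate early RNA-binding protein (0.98), and BCORL1 (0.98). For EGR2 they were MARCHF8 (0.96), BHLHE40, a circadian repressor (0.96), and CHD8 (0.955). For ATF3 they were DUSP5, a nuclear ERK phosphatase (0.95), CSRNP1 (0.95) and CHMP7 (0.945), and for NR4A1 ZNF548 (0.95), MNT (0.94) and PER1 (0.94). For EGR3 they were ZNF548 (0.94), KLF9 (0.93) and DEDD2 (0.93), for EGR1 VPS26C (0.95), KLF10 (0.95) and FBXO33 (0.94), and for FOSB MNT (0.955), CCNL1 (0.95) and KHNYN (0.95). FOS was most like XPO1, AKAP9 and ZBTB7B (each 0.99) and FOSL1 most like EXOSC7 (0.995), UCK2 (0.994) and GRPEL1 (0.993). The closest to JUN, ZNF394, reached 0.80, followed by ELP2 (0.78) and AKR1C2 (0.74).

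Other genes of the pathway were counted in the same comparisons, where the shares of all genes given above (34.1% higher and 33.1% lower from 5 hr to day 1, 41.4% and 38.4% from day 1 to day 3, 30.8% and 34.6% from day 3 to day 5) are the background, and several counts lie near them. Of 20 further immediate early transcription factors 12 rose and 4 fell from 5 hr to day 1 (median 0.45), led by NR4A2 (3.43), HES1 (2.30) and BHLHE40 (1.80). NR4A2 was near the floor, with a median of 0.14 TPM over all libraries. From day 1 to day 3 1 rose and 18 fell (median -1.44), with KLF4 (-2.28), NR4A2 (-2.16) and MAFF (-1.964) lowest, and from day 3 to day 5 9 rose and 6 fell (median 0.06). Of 26 tested immediate early genes for other proteins 8 rose and 16 fell in the first step (median -0.43), among them the chemokines CXCL8 (-1.91), CXCL2 (-1.81) and CXCL1 (-1.70). In the second step 8 rose and 17 fell, with the antiproliferative gene BTG2 at 2.17.

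AP-1 targets and cytoskeletal SRF targets were mostly lower over the same steps. Of 7 tested AP-1 targets 1 rose and 4 fell from 5 hr to day 1, and 1 rose and 6 fell to day 3, with HMGA1 at -2.49 and PLAUR at -2.12. Of 11 SRF and MRTF cytoskeletal targets 2 rose and 9 fell, then 3 rose and 8 fell, with FHL2, a LIM-domain cofactor, at -1.73 and -1.34. Of 15 delayed ERK output genes 5 rose and 8 fell, then 7 rose and 7 fell, with EMP1 at -1.18 and -2.55. ATF4 and CHOP stress genes went from 7 higher and 5 lower of 12 in the first step to 2 higher and 10 lower in the second. SLC7A11, near the floor with a median of 0.23 TPM over all libraries, was at -3.20 in the second step. ATF3 fell in that step too.

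Dimer partners and corepressors rose in the first step for 8 of 12 genes and fell for 2, with BATF3 at -1.32 and MAFG at 0.85. Upstream factors and kinases rose for 10 of 16 and fell for 4, then rose for 5 and fell for 11. SRF was among those that fell from day 1 to day 3 (-0.84), with MAPKAPK2 (-0.87) and ELK3 (-0.68). Heat shock genes fell for 11 of 11 in that step, led by HSPA8 (-2.05).

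The second question is how the genes answered DOX in each line. The sign of the response differed between guides and days for several genes. EGR3 and NR4A1 were higher with DOX in sgZBTB11-1 at all 4 times. In sgNS both were lower at days 3 and 5, and there FOSB was lower as well. All DOX comparisons of 1 time come from 1 fit of the libraries of that time, and each net change and each line comparison uses the same sgNS libraries.

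**Figure D3:**
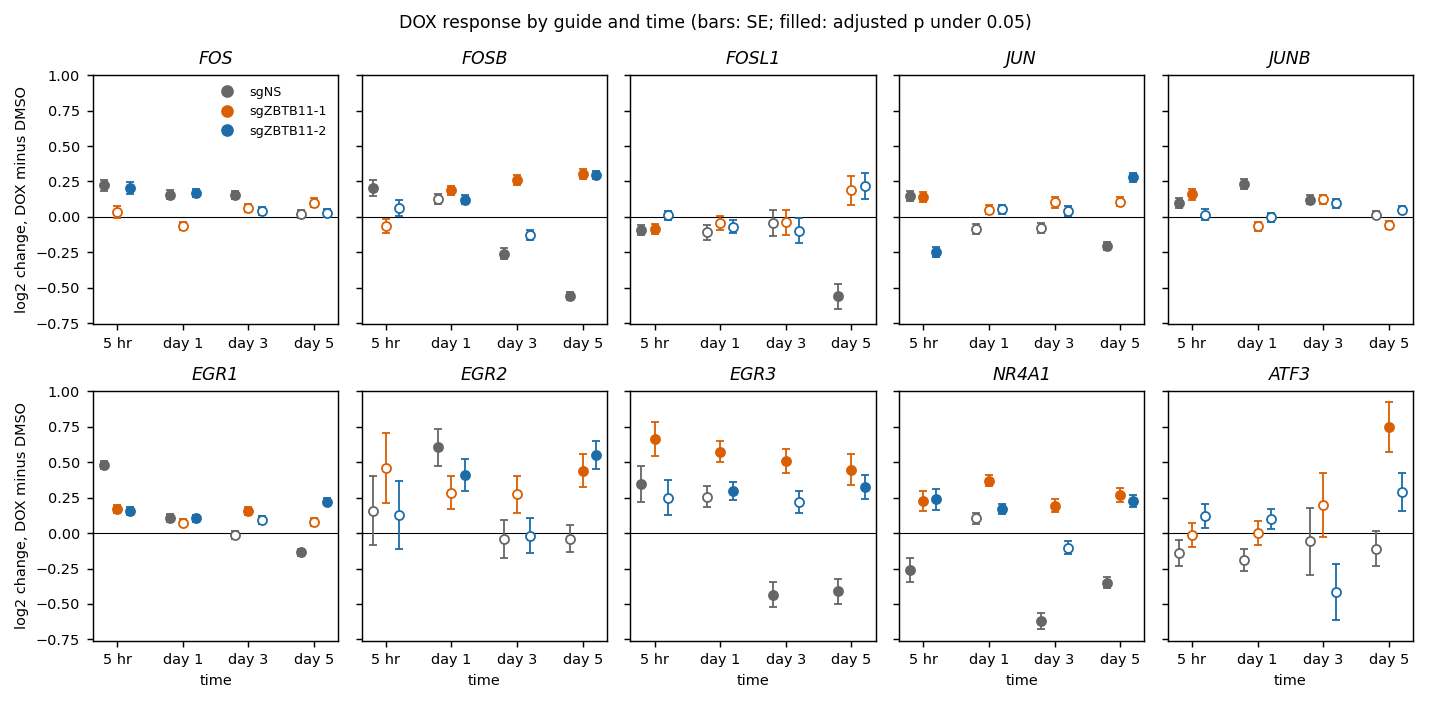
Log2 change with DOX (DOX minus DMSO) for each gene at 4 times in sgNS, sgZBTB11-1 and sgZBTB11-2, with bars for SE and filled points for an adjusted p under 0.05. EGR3 in sgZBTB11-1 lies between 0.45 and 0.66 at all 4 times, while sgNS is at -0.43 and -0.41 at days 3 and 5.

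At 5 hr DOX and DMSO libraries differed for many genes in every line, including sgNS. In sgNS 8 of 10 members were called, against 40.9% of 15623 genes. EGR1 ran at 471, 491 and 463 CPM with DMSO and at 659, 644 and 658 with DOX, with no overlap, a log2 change of 0.48 (SE 0.027, adjusted p = 5.6e-17). EGR3 (0.34), FOS (0.22), FOSB (0.20), JUN (0.15) and JUNB (0.10) rose, and NR4A1 (-0.26) and FOSL1 (-0.09) fell. In limma on log2(TPM + 1) NR4A1 was at -0.0355 (adjusted p = 0.80), and FOSL1 turned to a called rise of 0.14 (adjusted p = 0.0012).

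In sgZBTB11-1 6 members were called at 5 hr (32.8% of genes). EGR3 went from 6.14, 4.41 and 5.88 CPM to 9.09, 8.98 and 7.91, without overlap, a log2 change of 0.66 (SE 0.12, adjusted p = 3.9e-05). NR4A1 (0.23), EGR1 (0.17), JUNB (0.16) and JUN (0.14) rose, and FOSL1 (-0.09) fell. In sgZBTB11-2 4 members were called (17% of genes). NR4A1 (0.24), FOS (0.20) and EGR1 (0.16) rose, and JUN fell by 0.25, from 196, 182 and 186 CPM to 154, 159 and 157.

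Net of sgNS, the mean DOX change of both ZBTB11 guides minus that of sgNS, 4 members were called at 5 hr, against 30% of genes. NR4A1 was higher by 0.49 (SE 0.098), and EGR1 (-0.32), FOSB (-0.20) and JUN (-0.20) were lower. The DOX changes of the ZBTB11 guides differed from each other for 3 members (35.1% of genes), JUN (-0.39), FOS (0.17) and JUNB (-0.14). With a length trend removed, the sgNS calls of FOSB (adjusted p = 0.22), JUN (0.28), EGR3 (0.16) and FOSL1 (0.67) were lost. That of EGR3 was also lost without sgNS DMSO replicate 1 (0.0998) or DOX replicate 3 (0.11). Without sgNS DMSO 5 hr replicate 3 those of NR4A1 in sgNS (0.067) and of FOSB net of sgNS (0.10) were lost, the latter also without sgNS DOX replicate 1 (0.11). The sgNS call of JUNB was lost in 5 of 28 refits, each with 1 setting changed or 1 library dropped, that of FOSL1 in sgZBTB11-1 in 21, that of NR4A1 in sgZBTB11-2 in 7, and the guide differences of FOS and JUNB in 13 and 7. The sgNS call of FOSL1 was lost in 8 of these refits and turned to a rise in 3 more, those on TPM.

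At day 1 all member calls for DOX within a line were rises. In sgNS 4 of 10 rose, against 0.559% of 16275 genes. JUNB went from 256 and 280 CPM to 308, 318 and 309, without overlap, a log2 change of 0.23 (SE 0.035, adjusted p = 3.2e-05). EGR2 (0.60), FOS (0.16) and EGR1 (0.11) were the others. The sgNS DMSO group has 2 libraries here, and without replicate 1 or 2 the calls of EGR2 (0.067 and 0.14) and EGR1 (0.25 and 0.15) were lost, and that of FOS without replicate 1 (0.097). EGR1 also lost its call without sgNS DOX replicate 3 (0.099).

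In sgZBTB11-1 3 members rose at day 1 (1.64% of genes). EGR3 went from 15.7, 15.5 and 15.4 CPM to 21.5, 23.5 and 23.3, and NR4A1 from 80.3, 81.2 and 82.4 to 96.3, 109 and 105. The groups were apart for both, with log2 changes of 0.57 (SE 0.073, adjusted p = 1e-06) and 0.37 (SE 0.038, adjusted p = 1.3e-08), and FOSB rose by 0.19. In sgZBTB11-2 6 members rose (3.43% of genes): EGR2 (0.41), EGR3 (0.30), NR4A1 (0.17), FOS (0.17), FOSB (0.12) and EGR1 (0.10). EGR2 went from 8.64, 5.77 and 6.55 CPM to 9.34, 9.08 and 9.29, and its call was lost in 8 of 28 refits. Those of FOSB (0.061 without DMSO replicate 3, 0.069 without DOX replicate 3) and EGR1 (0.052 without DOX replicate 3) rested on single libraries of sgZBTB11-2. In limma on log2(TPM + 1) EGR2 in sgNS (adjusted p = 0.10) and EGR2 (0.066), EGR3 (0.22) and FOSB (0.095) in sgZBTB11-2 did not pass.

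Net of sgNS, where FOS, EGR1 and EGR2 had risen too, JUNB alone was called, lower by 0.27 (SE 0.041, adjusted p = 5e-04), where 0.0614% of genes were called lower. With DMSO it ran at 272, 261 and 271 CPM in sgZBTB11-1 and 268, 284 and 271 in sgZBTB11-2, and with DOX at 259, 246 and 252 and at 275, 270 and 268. The DOX changes of these lines were -0.07 and 0.00, against the rise of 0.23 in sgNS. Without sgNS DMSO day 1 replicate 1 it was -0.21 (adjusted p = 0.18). The guides differed in their DOX change for FOS alone (0.23, with 0.0307% of genes called higher), and that call was lost without sgZBTB11-1 DMSO day 1 replicate 2 (adjusted p = 0.076).

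At day 3 EGR3, NR4A1 and FOSB fell with DOX in sgNS and rose in sgZBTB11-1. In sgNS EGR3 went from 15.2, 15.4 and 14.8 CPM to 11.4, 11.5 and 10.6, NR4A1 from 50.8, 47.4 and 45.8 to 32.6, 29.4 and 31.6, and FOSB from 103, 116 and 110 to 89.1, 95.2 and 91.0. None of these overlapped, and the log2 changes were -0.43, -0.62 and -0.26. In sgZBTB11-1 EGR3 went from 13.6, 11.1 and 12.4 to 16.5, 18.4 and 17.97 CPM, NR4A1 from 73.7, 69.6 and 64.5 to 81.9, 81.5 and 74.7, and FOSB from 114, 114 and 117 to 136, 136 and 142. These were apart as well, with changes of 0.51, 0.19 and 0.26.

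In sgZBTB11-2 at day 3 EGR3 went from 14.1, 15.2 and 12.7 to 17.1, 15.4 and 16.3 CPM, while NR4A1 went from 59.9, 62.7 and 62.8 to 59.1, 57.2 and 56.4 and FOSB from 135, 132 and 133 to 119, 124 and 124. EGR3 was higher and the other pair lower without overlap, at 0.22 (adjusted p = 0.21), -0.10 (0.41) and -0.13 (0.063) in edgeR, none past the threshold. The FOSB difference between the ZBTB11 guides was itself tested and was -0.39 (SE 0.052, adjusted p = 3.2e-05), where 0.012% of genes were called lower. It did not pass in limma on TPM (adjusted p up to 0.086).

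Counted over the 10 genes at day 3, 5 were called in sgNS (0.877% of 16645 genes), with FOS (0.16) and JUNB (0.12) as the rises. In sgZBTB11-1 4 rose (0.192%), EGR1 (0.16) among them, and in sgZBTB11-2 0 were called by edgeR (1.17% of genes), with 6 at an unadjusted p under 0.05. Net of sgNS 3 were higher (0.156%): EGR3 by 0.80 (SE 0.10), NR4A1 by 0.67 (SE 0.066) and FOSB by 0.32 (SE 0.047). Each of these net values includes the fall in sgNS. For NR4A1 and FOSB the DOX libraries of sgZBTB11-2 lay below DMSO, though neither change was called. The NR4A1 level with DMSO was 47.99 ± 2.5 CPM in sgNS, 69.3 ± 4.6 in sgZBTB11-1 and 61.8 ± 1.7 in sgZBTB11-2 (SD, n = 3 each). The sgNS call of JUNB was lost in 19 of 28 refits and that of NR4A1 in sgZBTB11-1 in 9, and in limma on log2(TPM + 1) the net change of EGR3 was 0.81 and just missed the threshold (adjusted p = 0.0501). On that scale the day 3 changes of EGR3 in sgNS (-0.47, adjusted p = 0.069) and sgZBTB11-1 (0.37, 0.34), of NR4A1 in sgZBTB11-1 (0.29, 0.079) and of FOS in sgNS (0.05, 0.36) did not pass either.

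**Figure D4:**
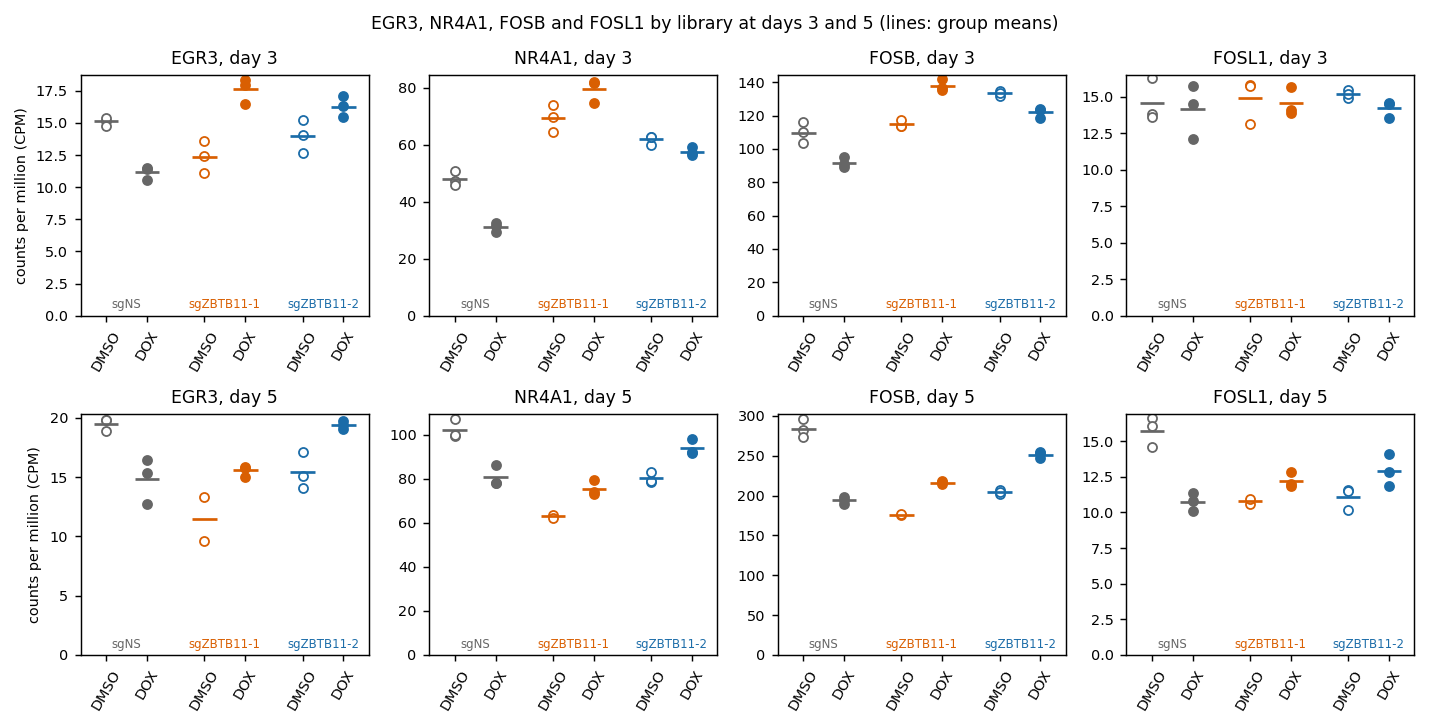
CPM of EGR3, NR4A1, FOSB and FOSL1 at days 3 and 5 in each library, open for DMSO and filled for DOX, with lines at group means. In sgNS the DOX libraries lie below DMSO for EGR3, NR4A1 and FOSB on both days, and at day 5 the sgNS has the highest DMSO mean of the 3 lines for all 4 genes.

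At day 5 the DOX responses of sgNS and the ZBTB11 lines had opposite signs for several genes, from DMSO levels that already differed. In sgNS FOSB, FOSL1, EGR3, NR4A1, JUN and EGR1 fell with DOX, and in the ZBTB11 lines FOSB, EGR2, EGR3 and NR4A1 rose. FOSB went from 282, 274 and 297 CPM to 189, 199 and 194 in sgNS, from 175 and 176 to 217, 218 and 214 in sgZBTB11-1, and from 202, 207 and 204 to 253, 254 and 247 in sgZBTB11-2. DMSO and DOX did not overlap in any line, and the log2 changes were -0.56 (SE 0.029, adjusted p = 1.1e-21), 0.30 (SE 0.034, adjusted p = 2.3e-08) and 0.30 (SE 0.029, adjusted p = 2.9e-11).

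FOSL1, scarce by then, went from 14.6, 16.6 and 16.04 CPM to 10.8, 11.4 and 10.1 in sgNS, a change of -0.56 (SE 0.088, adjusted p = 2.1e-06). In sgZBTB11-1 it went from 10.6 and 10.9 to 11.8, 12.8 and 12, and in sgZBTB11-2 from 10.2, 11.6 and 11.5 to 12.8, 14.1 and 11.9. DOX was above DMSO in both without overlap, but neither 0.19 (adjusted p = 0.51) nor 0.22 (0.14) passed. NR4A1 went from 99.2, 107 and 100.02 to 78.0, 86.2 and 77.8 in sgNS, from 63.6 and 62.1 to 73.8, 79.5 and 73.05 in sgZBTB11-1 and from 78.5, 79.0 and 82.9 to 92.3, 97.9 and 91.5 in sgZBTB11-2. Its groups were apart in all 3 lines, at -0.35, 0.27 and 0.23.

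EGR3 at day 5 went from 19.8, 18.9 and 19.8 to 15.4, 16.4 and 12.7 CPM in sgNS, from 13.3 and 9.65 to 15.8, 15.1 and 15.9 in sgZBTB11-1 and from 17.1, 15.1 and 14.1 to 19.4, 19.8 and 19.1 in sgZBTB11-2. DMSO and DOX were apart in each, at -0.41, 0.45 and 0.32. In limma on log2(TPM + 1) the rises were 0.18 (adjusted p = 0.63) and 0.15 (0.45) and did not pass. EGR2 showed no shift in sgNS, with 10.8, 12.3 and 11.4 CPM against 12.6, 10.6 and 10.3. It rose from 7.72 and 7.94 to 9.74, 11.8 and 10.3 in sgZBTB11-1 (0.44) and from 8.03, 8.43 and 7.88 to 11.9, 12.04 and 11.9 in sgZBTB11-2 (0.55). ATF3 rose in sgZBTB11-1, from 3.08 and 3.49 to 5.41, 5.07 and 5.96 CPM (0.75, SE 0.18), and stood at 0.29 in sgZBTB11-2 (adjusted p = 0.19).

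By count, 6 of 10 members fell in sgNS at day 5, against 8.47% of 16809 genes. In sgZBTB11-1 5 rose (0.363%) and in sgZBTB11-2 6 (3%), and these groups share no library. EGR1 (0.22) and JUN (0.28) rose in sgZBTB11-2, and the guides differed for both, by 0.14 and 0.17 (0.803% of genes called higher). The difference of JUN was lost without sgZBTB11-1 DMSO replicate 1 (adjusted p = 0.13), sgZBTB11-2 DMSO replicate 3 (0.068) or sgZBTB11-2 DOX replicate 1 (0.053), and that of EGR1 in 8 of 27 refits. In sgZBTB11-1 NR4A1 (0.062) and EGR3 (0.51, log2 change 0.24) lost their calls without DMSO replicate 2, EGR3 also without DOX replicate 1 (0.099) or 3 (0.088), and EGR2 and ATF3 in 10 and 8 of 27 refits. EGR3 in sgZBTB11-2 lost it without DMSO replicate 3 (0.088). In limma on log2(TPM + 1) the rises of EGR2 (0.28, adjusted p = 0.54), NR4A1 (0.25, 0.21) and ATF3 (0.57, 0.17) in sgZBTB11-1 did not pass.

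Net of sgNS 8 of 10 members were higher at day 5, against 8.95% of genes. FOSB was higher by 0.86 (SE 0.036), EGR3 by 0.80 (SE 0.11), FOSL1 by 0.76 (SE 0.11), ATF3 by 0.63 (SE 0.16), NR4A1 by 0.60 (SE 0.053), EGR2 by 0.54 (SE 0.12), JUN by 0.39 (SE 0.035) and EGR1 by 0.28 (SE 0.031). FOS (0.04, adjusted p = 0.41) and JUNB (-0.02, adjusted p = 0.78), the most abundant pair per length at that time, were not called. The members' median was 0.57 and that of all genes 0.00. On the log2(TPM + 1) scale all genes shifted to a median of 0.19 and the members to 0.66. There JUNB was called at 0.23 (adjusted p = 1.3e-05 in limma). Over the other settings tried 8 to 10 of 10 members were called.

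The net change includes the fall in sgNS, and sgNS with DMSO was itself higher than the other lines for most members. Its day 5 DMSO libraries also had the lowest share of mitochondrial DNA transcripts at that time, 25.98% to 26.4% of counts. The share was 29.4% to 29.8% in sgNS with DOX and 30.96% to 33.7% in the ZBTB11 lines with either treatment. The part of this difference in the members' changes was not tested. With DMSO at day 5, 10 members differed between sgZBTB11-1 and sgNS (21.8% of genes): 9 were lower, ATF3 by 1.34, EGR3 by 0.78, FOSB and NR4A1 by 0.71 each, and JUNB was higher by 0.15. In sgZBTB11-2 9 were lower than in sgNS (9.63% of genes), FOSL1 by 0.52, EGR2 by 0.51, ATF3 by 0.50 and FOSB by 0.49, and FOS was at -0.03. In limma on log2(TPM + 1) EGR2 (-0.21, adjusted p = 0.27) and EGR3 (-0.20, 0.16) in sgZBTB11-2 and EGR2 (-0.32, 0.092) in sgZBTB11-1 did not pass. The FOSB mean with DOX was 194 CPM in sgNS, 216 in sgZBTB11-1 and 251 in sgZBTB11-2, and with DMSO 284, 176 and 205. The direction of JUNB in sgZBTB11-1 turned on the TPM scale (-0.08), its call in sgZBTB11-2 was lost in 16 of 27 refits, and that of FOS in sgZBTB11-1 without any 1 of 3 libraries (sgZBTB11-1 DMSO replicate 1, 0.21, or 2, 0.063, or sgNS DMSO replicate 3, 0.076).

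The line differences with DMSO were not the same at other times. At 5 hr 6 members were called in sgZBTB11-1 (32% of genes) and 5 in sgZBTB11-2 (32.2%), with FOSB higher in both (0.63 and 0.21) and JUNB lower in both (-0.38 and -0.23). At day 1 6 were lower in sgZBTB11-1 (11.2%), ATF3 by 0.85, EGR3 by 0.64, NR4A1 by 0.60 and JUN by 0.55, and 4 were called in sgZBTB11-2 (10.7%), ATF3 (-0.37), JUN (-0.24) and FOS (-0.21) below sgNS and EGR1 (0.14) above. At day 3 4 were called in sgZBTB11-1 (19.7%), NR4A1 being higher by 0.53 and EGR3, EGR1 and JUNB lower, and in sgZBTB11-2 2 were higher (1.75%), NR4A1 by 0.36 and FOSB by 0.28. NR4A1 in sgZBTB11-1 with DMSO was thus above sgNS at 5 hr and day 3 and below it at days 1 and 5. The day 1 differences of FOSB, FOSL1 and EGR3 in sgZBTB11-1 and of FOS, JUN and ATF3 in sgZBTB11-2 did not pass on the log2(TPM + 1) scale, where the median of all genes was 0.13 and 0.12. The day 1 call of ATF3 in sgZBTB11-2 was lost once sgNS DMSO replicate 1 was left out (adjusted p = 0.11), and EGR3 in sgZBTB11-1 at day 3 without sgZBTB11-1 DMSO replicate 2 (0.12) or sgNS DMSO replicate 2 (0.056).

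Net of sgNS at day 3 only 82 of 16645 genes were called in either direction, so few or no calls in a short list is the background and no result about the list. Of 18 tested further immediate early transcription factors edgeR called 0 (7 at an unadjusted p under 0.05). Of 26 immediate early genes for other proteins 2 rose, BTG2 (0.23) and ZFP36L1 (0.18), and edgeR called 0 of 15 delayed ERK output genes and 0 of 7 AP-1 targets (5 and 1 at an unadjusted p under 0.05). At day 5 the background was 8.95% of 16809 genes called higher and 1726 genes called lower. Of 18 further transcription factors 9 were higher and 0 lower (median 0.25), led by KLF6 (0.69), JUND (0.51) and CSRNP1 (0.39). Of 26 other immediate early genes 10 were higher and 3 lower, with TRIB1 at 0.53, DUSP5 at 0.42 and CXCL1 at -0.39, and of 15 delayed ERK output genes 5 were higher and 1 lower, with CCND1 (0.36), ETV4 (-0.36) and DUSP6 (0.35).

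Of 16 upstream factors and kinases 4 were higher and 1 lower at day 5, ELK4 (0.53) and SRF (0.47) being the largest rises and ATF1 (-0.38) the fall. Of 11 dimer partners and corepressors 5 were higher, among them MAFK (0.36). AP-1 targets gave 0 calls of 7 in edgeR (1 at an unadjusted p under 0.05, median 0.03). Over all genes 3230 of 16809 were called, so 0 calls among 7 genes is no result about the list. Of 11 heat shock genes 6 were lower and 1 higher, with HSP90AA1 at -0.57, where 1726 of 16809 genes were called lower, and of 10 SRF and MRTF cytoskeletal targets 4 were lower, led by FHL2 (-0.33). In bulk RNA such as this, fewer cells that express a gene and less RNA of it per cell cannot be told apart.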

How the data were processed

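Poly(A) RNA of 70 libraries was analysed from 2 tables. The authors deposited expected counts for each gene (estimated counts, some of them fractional) and TPM. The submitters' processing notes name RSEM and the build GRCh38.p14. For aligner, annotation version and strandedness the status is "not given in the sources used here", so reads of overlapping or antisense genes cannot be told apart. Groups come from the labels. Expected counts were rounded to whole numbers (5.13% of values were not whole), and 0 columns belonged to other samples. No 2 libraries of a group were identical.

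Tests used edgeR 4.0.16 in R 4.3.3 (filterByExpr by group, TMM, robust quasi-likelihood F test) with Benjamini-Hochberg adjustment over all genes tested and a threshold of 0.05. The 34 DMSO libraries entered 1 fit for culture time, and all libraries of a time entered 1 fit for DOX, net and line comparisons. SE is the log2 change divided by the square root of F. Only the day 3 fit and the culture time fit were tried on simulated counts. The check on detection there covered log2 changes of 1 or more, so it does not bear on smaller changes or other times. The members and gene lists were chosen with earlier results of these data known. All 10 members are named. From each list up to 3 genes with the largest log2 change among those called are named, and for likeness the 3 genes with the highest r. Some genes that this rule would name are not reported here. Coordinates and promoters are those of RefSeq on GRCh38.p14.

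Other settings tried were DESeq2 1.42.0, scaling by RLE, dropping the low-count filter, a replicate block (at day 1 also by library name, since the library names number sgNS DMSO replicates 1 and 2 as 2 and 3), limma 3.58.1 on log2(TPM + 1) and log2(TPM + 0.1) for genes that reach 1 TPM in 3 libraries or for all genes, mitochondrially encoded genes left out, a length trend removed, 1 fit of all 70 libraries, and leaving out each library. The fits on TPM had no further scaling between libraries. Changes on the log2(TPM + pseudocount) scale are understated for low genes.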

Additional observations from a re-analysis of the deposited data

Results flagged for a closer look

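In these results the DOX response of a gene differed between lines by the test of the difference itself (edgeR's quasi-likelihood test, adjusted p under 0.05). Net changes use the same sgNS libraries at each time and include the DOX change of sgNS itself.

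Net of sgNS at 5 hr, where 30% of 15623 genes were called, the differences were -0.20 for FOSB, -0.20 for JUN, -0.32 for EGR1 and 0.49 for NR4A1. The call of FOSB was lost in DESeq2 (adjusted p = 0.067). At day 1 the difference was -0.27 for JUNB. At day 3 they were 0.32 for FOSB, 0.80 for EGR3 and 0.67 for NR4A1. At day 5 they were 0.86 for FOSB, 0.76 for FOSL1, 0.39 for JUN, 0.28 for EGR1, 0.54 for EGR2, 0.80 for EGR3, 0.60 for NR4A1 and 0.63 for ATF3.

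The DOX response in sgZBTB11-2 minus that in sgZBTB11-1 was 0.17 for FOS, -0.39 for JUN and -0.14 for JUNB at 5 hr. It was 0.23 for FOS at day 1 and -0.39 for FOSB at day 3. At day 5 it was 0.17 for JUN and 0.14 for EGR1. Between these guides 35.1% of all genes were called at 5 hr. The 5 hr calls of FOS and JUNB were lost in DESeq2 (adjusted p = 0.091 and 0.067). For FOSB at day 3 the DOX libraries lay all above DMSO in sgZBTB11-1 and all below in sgZBTB11-2. The fall in sgZBTB11-2 was not called in edgeR. The FOSB difference between these guides did not pass in limma on TPM (adjusted p from 0.073 to 0.086).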

How the results depend on the processing

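Of 154 called changes of single genes, leaving out 1 library gave 3149 values, of which 3012 kept direction and call and 137 lost the call, with no reversal. The other settings gave 1565 values: 1389 kept both, 161 lost the call and 15 reversed.

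All 15 reversals of calls, and 23 more of changes that were not called, came from limma on TPM, whose median over all genes differed from that of edgeR by over 0.1 in several comparisons (0.12 for day 1 minus 5 hr, -0.16 for day 5 minus day 3, 0.19 for day 5 net of sgNS). The cause was not tested. The values are given for log2(TPM + 1), with the same value in the unfiltered fit except for JUN at day 3, which did not reverse there, and for log2(TPM + 0.1). For culture time they were 0.19 and 0.19 for JUN from 5 hr to day 1, 0.018 and 0.022 for EGR3 from day 1 to day 3, and -0.19 and -0.19 for EGR1 from day 3 to day 5. For DOX at 5 hr FOSL1 was at 0.14 and 0.14 in sgNS, 0.076 and 0.077 in sgZBTB11-1 and -0.11 and -0.12 net of sgNS. For DOX at day 5 FOS was at -0.21 and -0.21 and JUNB at -0.19 and -0.19 in sgNS, and JUNB net of sgNS at 0.23 and 0.23. For sgZBTB11-1 minus sgNS with DMSO FOS was at 0.13 and 0.13 at day 1 and -0.13 and -0.13 at day 3, JUN at -0.12 and -0.12 at day 3, and JUNB at -0.078 and -0.078 at day 5.

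The counts of members called moved by over 1.5 times in these cases. Net of sgNS at 5 hr, 4 became 7 under both TPM pseudocounts. Over the 3 lines, 13 of 30 at day 1 became 4 without the TPM filter, and 9 of 30 at day 3 became 4 under both pseudocounts and 3 without the filter. Between ZBTB11 guides, 3 at 5 hr became 1 in DESeq2, 1 at day 3 became 2 without the filter on low counts, and 1, 1 and 2 at days 1, 3 and 5 became 0 under all 3 TPM settings. Leaving out 1 library gave 1 to 3, 0 to 2, 1 to 2 and 0 to 2 between guides at 5 hr and days 1, 3 and 5, and 0 to 1 net of sgNS at day 1. The count between guides at 5 hr was 1 without sgZBTB11-1 DMSO replicate 3, sgZBTB11-2 DMSO replicate 1 or sgZBTB11-2 DOX replicate 1, at day 1 it was 0 without sgZBTB11-1 DMSO replicate 2 and 2 without sgZBTB11-2 DMSO replicate 1, and at day 3 it was 2 without sgZBTB11-1 DOX replicate 3. The 8 calls net of sgNS at day 5 stayed at 8 without any 1 library. Leaving out 1 library cannot probe a trait that all libraries of a group share.

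The replicate numbers showed no clear pairing of the libraries, but weak correlations such as these cannot exclude one. Of 34 pairs with the same number, 8 had deviations correlated above 0.1. Their median was 0.04, against -0.014 for pairs with other numbers. Of 34 DMSO libraries 16 were most like the DOX library of their own number. With a replicate block the members called were 9, 10 and 9 for the time steps, 18, 13, 8 and 17 over the lines at 5 hr and days 1, 3 and 5, 4, 1, 3 and 8 net of sgNS, 3, 1, 1 and 2 between guides, and 11, 10, 6 and 19 between lines with DMSO. Low counts limit EGR2, EGR3 and ATF3 most.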
